A study of Mus musculus with 20 samples.

Results

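The genes described here are 10 genes for matricellular proteins and for targets of the transcriptional co-activators YAP and TAZ, taken from the 45706 gene IDs counted in the series by matching their Ensembl IDs to gene symbols. They are Ccn1, Ccn2, Ankrd1, Amotl2, Thbs1, Thbs2, Sparc, Tnc, Postn and Mgp. RNA was sequenced from 8 primary mammary tumors and 12 samples of cultured tumor cells, 20 samples in 6 groups. The tumors came from mice aged 18 weeks that carried the PyMT oncogene under the MMTV promoter, which is active in mammary epithelium. Of these, 4 tumors were labelled wild type and had functional Ctsd, the gene for the lysosomal protease cathepsin D (control), and in 4 tumors an MMTV-driven cre had deleted floxed Ctsd in the mammary epithelium (MMTV-cre;Ctsd-/-), so that the stroma kept the gene. The cell samples came from 1 spontaneously immortalized PyMT tumor cell line of each genotype, Ctsd+/+ and MMTV-cre;Ctsd-/-, here called Ctsd+/+ and Ctsd-/- cells. Each line was kept in 1% fetal calf serum for 10 days (1% FCS) or for 12 weeks (1% FCS LT), with 3 samples per group. Genotype and cell line could therefore not be told apart in the cells. All control tumors shared a sequencing run and all Ctsd-deleted tumors shared a different one, which means that run and genotype could not be told apart in the tumors. In the cells, replicate 1 of both 1% FCS groups shared a run, and replicate 3 of both 1% FCS LT groups shared another. The remaining cell samples were in a run that held all cell groups, so that run was partly tied to culture time. The study describes the samples of a cell group as independent experiments, so p-values in the cells measure the spread between experiments with 1 line and not between mice. Reads assigned to genes ranged from 49725437 to 64291587 per tumor and from 33622831 to 40239762 per cell sample.

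Matricellular proteins are secreted into the extracellular matrix without building its scaffold. They bind integrins and other receptors, growth factors and structural matrix proteins, and they are abundant in healing wounds and in tumor stroma. YAP and its paralog TAZ are held in the cytoplasm when the kinases of the Hippo pathway are active. When these kinases are inactive, or when cells spread on a stiff matrix, YAP and TAZ enter the nucleus and act through the TEAD DNA-binding factors. Several matricellular genes, among them Ccn1 and Ccn2, are standard readouts of that activity.

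Promoters are shown for the members in which the core of the TEAD motif was found, because these are YAP/TAZ targets and all fell in Ctsd+/+ cells between 1% FCS and 1% FCS LT. Sparc and Postn, without a match, and Ccn2, without an entry in the promoter table, fell there as well. The RefSeq promoter table for GRCm38.p6 (250 bases before to 50 after a transcription start) held an entry for 7 of the 10 members, and those of Ccn2, Thbs1 and Mgp were not analysed here. The motif searched was GGAATG on either strand, read as CATTCC on the opposite one. It was present in the windows of Ccn1, Ankrd1 and Amotl2 and absent from those of Thbs2, Sparc, Tnc and Postn, and it was present in 14.7% of all 32851 windows. The CArG box, the motif of the serum response factor, was found in none of the 7 members' windows and in 1.63% of all windows. A match describes letters in a window and is not evidence of binding. The capitals mark the TEAD core, which began 103 bases before the start in Ccn1 (chr3:145649936-145650235, minus strand), 210 and 123 bases before it in Ankrd1 (chr19:36119795-36120094, minus strand) and 65 bases before it in Amotl2 (chr9:102717554-102717853, plus strand).
Ccn1: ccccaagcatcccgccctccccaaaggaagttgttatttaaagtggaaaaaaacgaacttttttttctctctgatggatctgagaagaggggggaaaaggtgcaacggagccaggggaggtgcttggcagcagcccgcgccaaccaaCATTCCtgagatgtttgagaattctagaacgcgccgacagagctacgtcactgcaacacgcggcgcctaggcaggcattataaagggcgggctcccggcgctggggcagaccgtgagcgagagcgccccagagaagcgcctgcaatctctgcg
Ankrd1: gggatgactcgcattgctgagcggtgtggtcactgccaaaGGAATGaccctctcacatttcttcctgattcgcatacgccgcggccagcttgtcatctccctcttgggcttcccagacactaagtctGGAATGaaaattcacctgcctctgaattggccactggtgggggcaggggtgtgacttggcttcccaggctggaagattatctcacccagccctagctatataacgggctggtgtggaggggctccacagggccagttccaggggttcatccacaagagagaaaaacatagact
Amotl2: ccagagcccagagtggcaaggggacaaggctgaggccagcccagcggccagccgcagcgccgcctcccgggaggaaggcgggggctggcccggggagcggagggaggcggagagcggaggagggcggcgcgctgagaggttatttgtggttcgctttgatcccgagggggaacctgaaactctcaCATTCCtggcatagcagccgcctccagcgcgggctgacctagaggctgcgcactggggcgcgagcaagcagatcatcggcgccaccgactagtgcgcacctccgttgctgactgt

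Cathepsin D RNA was read first as a check of the labels. After 10 days, Ctsd stood at 4199, 2858 and 1267 counts per 1000000 reads (CPM) in the Ctsd+/+ line and at 192, 141 and 131 CPM in the Ctsd-/- line. After 12 weeks the values were 1627, 1667 and 1895 CPM against 123, 114 and 151 CPM. Every Ctsd-/- cell sample lay below every Ctsd+/+ sample, 17.9-fold lower in 1% FCS and 13.4-fold lower in 1% FCS LT. In the tumors Ctsd was 1860, 2617, 1781 and 2532 CPM in controls and 797, 360, 1295 and 1233 CPM after epithelial deletion, and these groups did not overlap either.

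Levels of different members are ranked only per kilobase of annotated exon, whereas the leading genes of marker sums are named by CPM. On that scale Sparc was the most abundant member in the tumors, with 531 ± 203 CPM per kb in controls and 546 ± 139 CPM per kb in MMTV-cre;Ctsd-/- tumors (SD, n = 4). Mgp followed with 187 ± 71.3 and 108 ± 13.8 CPM per kb, and Ankrd1 was the least abundant with 0.877 ± 0.650 and 0.429 ± 0.505 CPM per kb. In Ctsd+/+ cells in 1% FCS, Sparc (1035 ± 362 CPM per kb, n = 3) and Thbs1 (1033 ± 301 CPM per kb) shared the first place within their spread. Thbs1 was first in the other 3 cell groups, with 1016 ± 97.7, 747 ± 104 and 949 ± 77.0 CPM per kb in 1% FCS Ctsd-/-, 1% FCS LT Ctsd+/+ and 1% FCS LT Ctsd-/- cells. Thbs2 had 7 or fewer reads in any cell sample and was the least abundant member in 1% FCS Ctsd+/+ and 1% FCS LT Ctsd-/- cells. In 1% FCS LT Ctsd+/+ cells it overlapped with Postn (0.0123 ± 0.0127 and 0.0193 ± 0.00676 CPM per kb), and in 1% FCS Ctsd-/- cells Thbs2 had 1 read and Mgp 0 in the 3 samples together, so that their order was not resolved. The plot of the members' levels by sample shows these values.

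**Figure D1:**
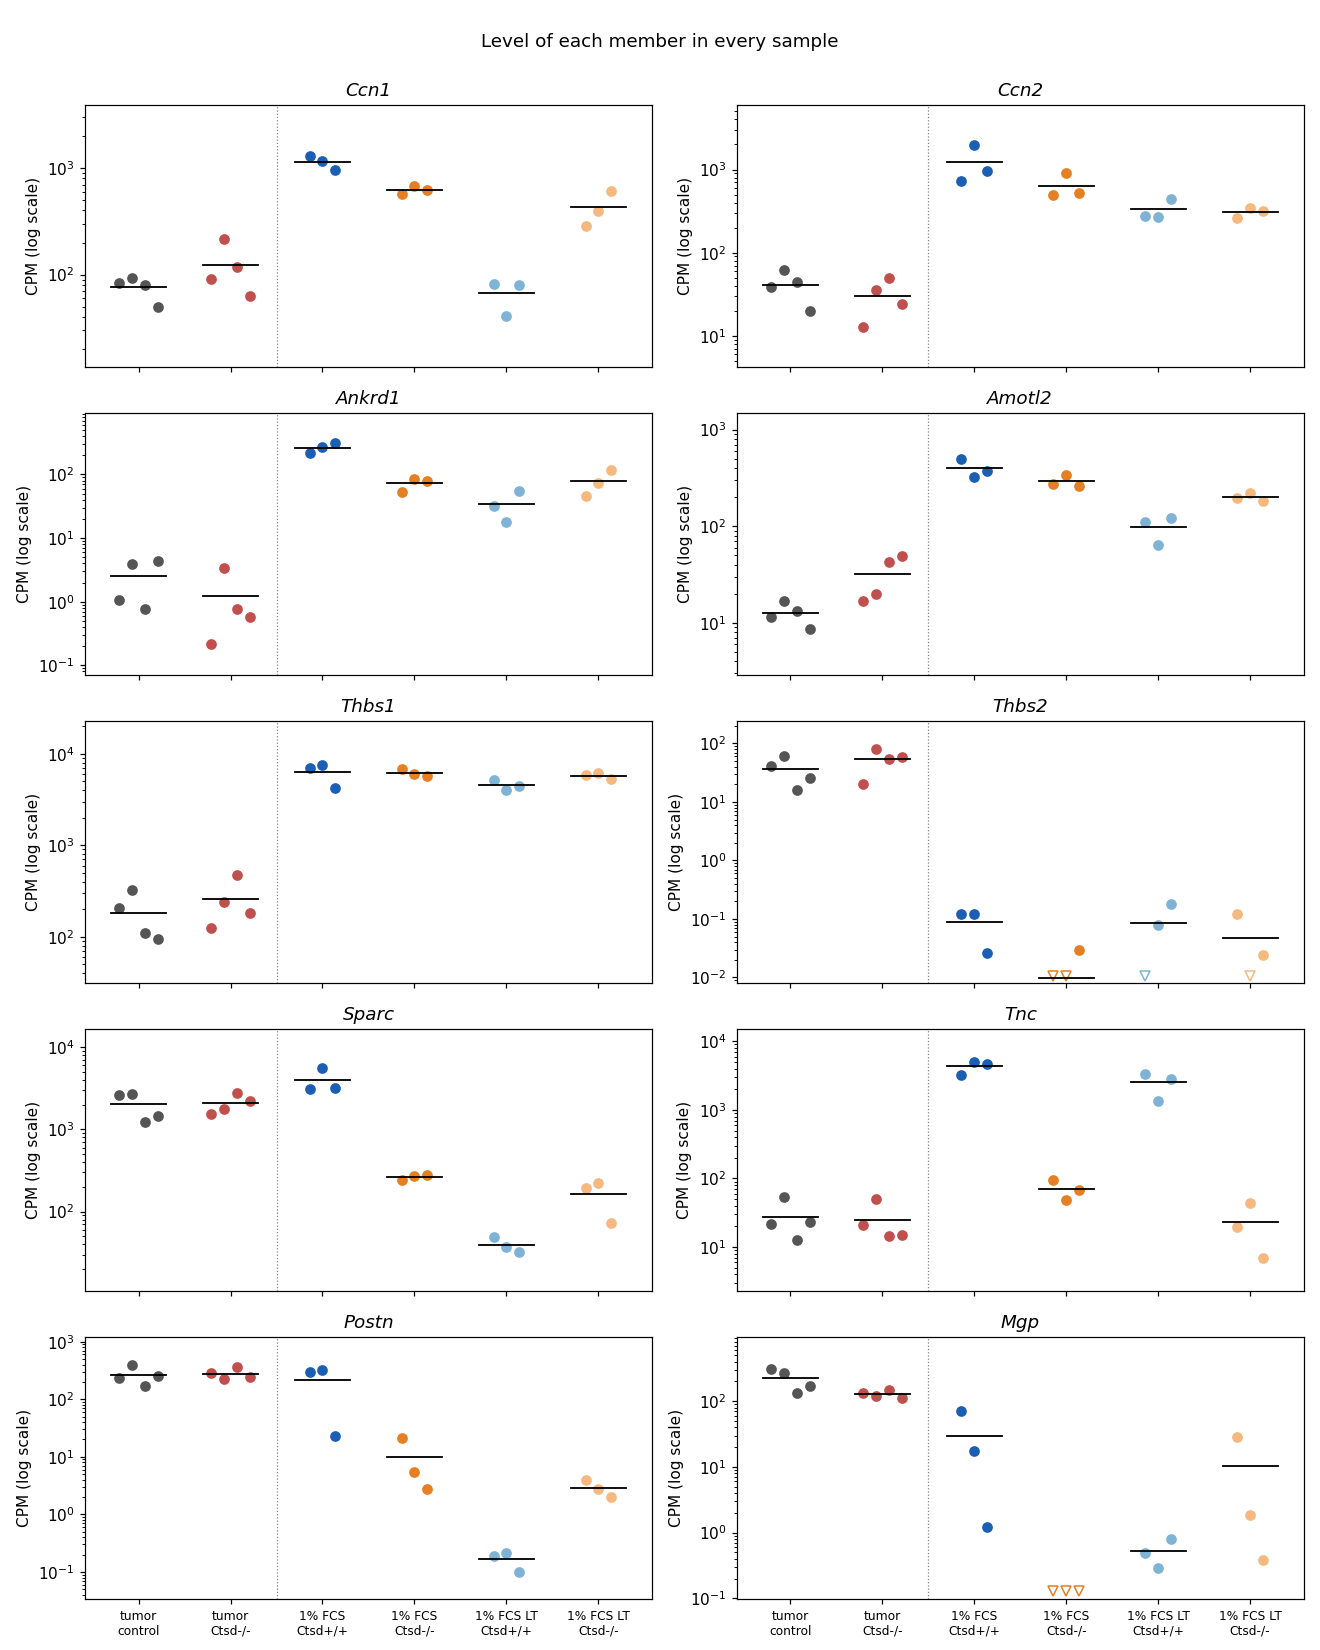
Level of each of the 10 genes in CPM (log axis) in every tumor and cell sample of the 6 groups. Each point is a sample, each bar a group mean, open triangles at the lower edge are samples with 0 reads, and tumors and cells left and right of the dotted line were normalized separately. Thbs1 lay between 3967 and 7587 CPM in all cell samples, whereas Sparc spanned 32.6 to 5502 CPM.

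Of the YAP/TAZ targets, Ccn1, Ankrd1 and Amotl2 had their highest group mean in Ctsd+/+ cells in 1% FCS and their lowest in Ctsd+/+ cells in 1% FCS LT, with Ctsd-/- cells between them at both times. The means of Sparc, Postn and Thbs1 had the same highest and lowest group, and those of the target Ccn2 did not. Ccn1 (chr3:145646976-145649981, minus strand), which encodes a secreted integrin ligand, measured 1306, 1176 and 952 CPM (Ctsd+/+) and 569, 674 and 624 CPM (Ctsd-/-) in 1% FCS. The corresponding values in 1% FCS LT were 82.1, 41.0 and 80.3 CPM (Ctsd+/+) and 284, 394 and 609 CPM (Ctsd-/-). The genotypes did not overlap at either time, and their order was opposite. By edgeR's quasi-likelihood test, with p-values adjusted by Benjamini-Hochberg across the 15178 genes, the log2 fold change of Ctsd-/- against Ctsd+/+ cells was -0.88 ± 0.29 (SE) in 1% FCS (adjusted p = 0.0253), which passed the p threshold but not the 2-fold threshold, and 2.66 ± 0.31 in 1% FCS LT (adjusted p = 4.33e-05). Without 1% FCS Ctsd+/+ replicate 3 the first value was -1.01 and passed both thresholds.

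Ankrd1 (chr19:36111961-36120099, minus strand), for a nuclear ankyrin repeat protein of muscle, measured 215, 265 and 309 CPM (Ctsd+/+) and 53.2, 86.0 and 79.2 CPM (Ctsd-/-) in 1% FCS. The Ctsd-/- cells were lower in every sample, with a log2 fold change of -1.85 ± 0.40 (adjusted p = 0.00247). After 12 weeks it measured 32.5, 17.7 and 54.4 CPM (Ctsd+/+) and 45.6, 73.8 and 118 CPM (Ctsd-/-). These ranges overlapped, and the log2 fold change of 1.18 ± 0.39 (adjusted p = 0.0324) lost its call without 1% FCS LT Ctsd+/+ replicate 1 (1.14) or 2 (0.86), without 1% FCS LT Ctsd-/- replicate 2 (1.23) or 3 (0.78), and when only these groups were fitted (1.15).

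Amotl2 (chr9:102716672-102733418, plus strand) encodes an angiomotin family protein that binds YAP and restrains it, and is itself induced by YAP. Its level in 1% FCS was 496, 326 and 377 CPM (Ctsd+/+) and 271, 340 and 263 CPM (Ctsd-/-), and these ranges overlapped (log2 fold change -0.46 ± 0.22, adjusted p = 0.112). After 12 weeks it was 110, 63.6 and 121 CPM (Ctsd+/+) and 197, 220 and 182 CPM (Ctsd-/-). The Ctsd-/- cells were higher in every sample, with a log2 fold change of 1.02 ± 0.23 (adjusted p = 0.00372) that lay just above the 2-fold threshold and fell below it without 1% FCS LT Ctsd+/+ replicate 2 (0.79) or Ctsd-/- replicate 2 (0.95).

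Ccn2 (chr10:24595442-24598683, plus strand), connective tissue growth factor, measured 721, 1997 and 967 CPM (Ctsd+/+) and 493, 904 and 519 CPM (Ctsd-/-) in 1% FCS. These ranges overlapped, and the log2 fold change of -0.94 ± 0.36 (adjusted p = 0.0471) was under 2-fold. It passed 2-fold within the run that held all groups (-1.06) and without 1% FCS Ctsd+/+ replicate 1 (-1.21) or 3 (-1.11) or Ctsd-/- replicate 2 (-1.28), and it was -0.40 without 1% FCS Ctsd+/+ replicate 2, the sample of 1997 CPM. Ccn2 in 1% FCS LT was 280, 270 and 445 CPM against 262, 342 and 320 CPM, and the genotypes overlapped (log2 fold change -0.11 ± 0.36, adjusted p = 0.838).

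Of the thrombospondins, which bind CD47, CD36 and integrins and can activate latent TGF-beta, the members are Thbs1 and Thbs2, and Thbs1 alone of these was tested in the cells. Thbs1 (chr2:118111876-118127133, plus strand) measured 7057, 7587 and 4185 CPM (Ctsd+/+) and 6842, 5962 and 5714 CPM (Ctsd-/-) in 1% FCS. Its level in 1% FCS LT was 5216, 3967 and 4424 CPM (Ctsd+/+) and 5909, 6136 and 5237 CPM (Ctsd-/-), so that the gene was high in every cell sample. The log2 fold change between genotypes was -0.02 ± 0.21 in 1% FCS (adjusted p = 0.935) and 0.34 ± 0.21 in 1% FCS LT (adjusted p = 0.224), where every Ctsd-/- sample lay slightly above every Ctsd+/+ sample. Thbs2 (chr17:14665500-14694235, minus strand) had 0 to 7 reads per cell sample and was not tested there.

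In 1% FCS the members with the largest log2 fold changes between genotypes were Tnc, Postn, Sparc and Mgp. Sparc (chr11:55394500-55423183, minus strand), a collagen-binding calcium-binding glycoprotein, measured 3102, 5502 and 3154 CPM (Ctsd+/+) and 241, 273 and 282 CPM (Ctsd-/-) in 1% FCS. After 12 weeks it was 49.3, 36.7 and 32.6 CPM (Ctsd+/+) and 193, 223 and 72.2 CPM (Ctsd-/-). No ranges overlapped, and the order of the genotypes was opposite at the 2 times, as for Ccn1. Sparc was 14.8-fold lower in Ctsd-/- cells in 1% FCS (log2 fold change -3.89 ± 0.40, adjusted p = 1.17e-05) and 4.11-fold higher in 1% FCS LT (2.04 ± 0.37, adjusted p = 0.00102).

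Tnc (chr4:63959785-64047015, minus strand), tenascin C, a hexameric matrix glycoprotein of wounds and tumor stroma, differed between genotypes in the same direction at both times. Its level in 1% FCS was 3237, 5032 and 4692 CPM (Ctsd+/+) and 93.9, 48.6 and 67.9 CPM (Ctsd-/-). Its level in 1% FCS LT was 3383, 1368 and 2854 CPM (Ctsd+/+) and 19.9, 43.4 and 6.87 CPM (Ctsd-/-). All Ctsd-/- samples were far below all Ctsd+/+ samples, 61.6-fold in 1% FCS (log2 fold change -5.95 ± 0.65, adjusted p = 1.87e-05) and 109-fold in 1% FCS LT (-6.76 ± 0.67, adjusted p = 1.47e-05). Without 1% FCS LT Ctsd-/- replicate 2 the latter log2 fold change was -7.56.

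Postn (chr3:54361109-54391037, plus strand) encodes periostin, an integrin ligand made mainly by stromal fibroblasts. Its level in 1% FCS was 295, 320 and 23.0 CPM (Ctsd+/+) and 21.5, 5.39 and 2.72 CPM (Ctsd-/-). The groups did not overlap, though Ctsd+/+ replicate 3 was close to the highest Ctsd-/- sample (log2 fold change -4.42 ± 0.91, adjusted p = 0.00188). Without 1% FCS Ctsd-/- replicate 1 it was -5.70. After 12 weeks Postn was nearly absent from Ctsd+/+ cells (0.189, 0.213 and 0.101 CPM, 4 to 8 reads per sample) and low in Ctsd-/- cells (3.97, 2.81 and 1.98 CPM). The log2 fold change of 4.10 ± 1.33 (adjusted p = 0.0278) lost its call within the run that held all groups (4.06), without any one of the 3 Ctsd+/+ samples (3.84 to 4.31), without Ctsd-/- replicate 1 (3.82) and with limma-voom (4.03).

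Mgp (chr6:136872435-136875823, minus strand), matrix Gla protein, is an inhibitor of calcification. Ctsd+/+ cells in 1% FCS had 70.6, 17.3 and 1.23 CPM, with 0 reads in each Ctsd-/- sample, which against a floor of 3 reads per library made it at least 335-fold lower in the mean of the Ctsd-/- cells (edgeR adjusted p = 0.00681). The bound rested on Ctsd+/+ replicate 1 and was at least 104-fold without it. That call was lost with limma-voom. Mgp in 1% FCS LT was 0.486, 0.293 and 0.811 CPM (Ctsd+/+) and 28.9, 1.88 and 0.387 CPM (Ctsd-/-). These overlapped, and the difference rested on Ctsd-/- replicate 1 (log2 fold change 4.28 ± 1.69, adjusted p = 0.0711, and 1.08 without that sample). It passed both thresholds with DESeq2 (4.27), without the filter on low counts (4.31), with counts regardless of strand (4.29), within the run that held all groups (5.29), when only these groups were fitted (4.27) and without Ctsd-/- replicate 3 (4.85).

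Read as a count, 5 of the 9 tested members (Ankrd1, Sparc, Tnc, Postn and Mgp) were lower in Ctsd-/- cells in 1% FCS at an adjusted p under 0.05 and more than 2-fold, and 0 were higher. Among all 15178 genes tested, 14.6% were lower by that rule and 10.3% higher. After 12 weeks 5 members (Ccn1, Ankrd1, Amotl2, Sparc and Postn) were higher and 1 (Tnc) was lower, against 9.24% higher and 10.1% lower among all genes. Without 1% FCS LT Ctsd+/+ replicate 2 the members called in 1% FCS LT were 3, with 16.9% of all genes called in either direction against 19.4% with every sample. The members' median log2 fold change was -1.85 in 1% FCS and 1.18 in 1% FCS LT, the first also with Mgp at its bound, and the median of all genes was close to 0 in both. In the run that held all groups, 6 members were lower in 1% FCS, with Ccn2 added, and in 1% FCS LT 5 were higher and 1 lower, with Mgp called in place of Postn. That run lacked replicate 1 of both 1% FCS groups and replicate 3 of both 1% FCS LT groups. In that run 24.2% and 19.6% of all genes were called in either direction.

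**Figure D2:**
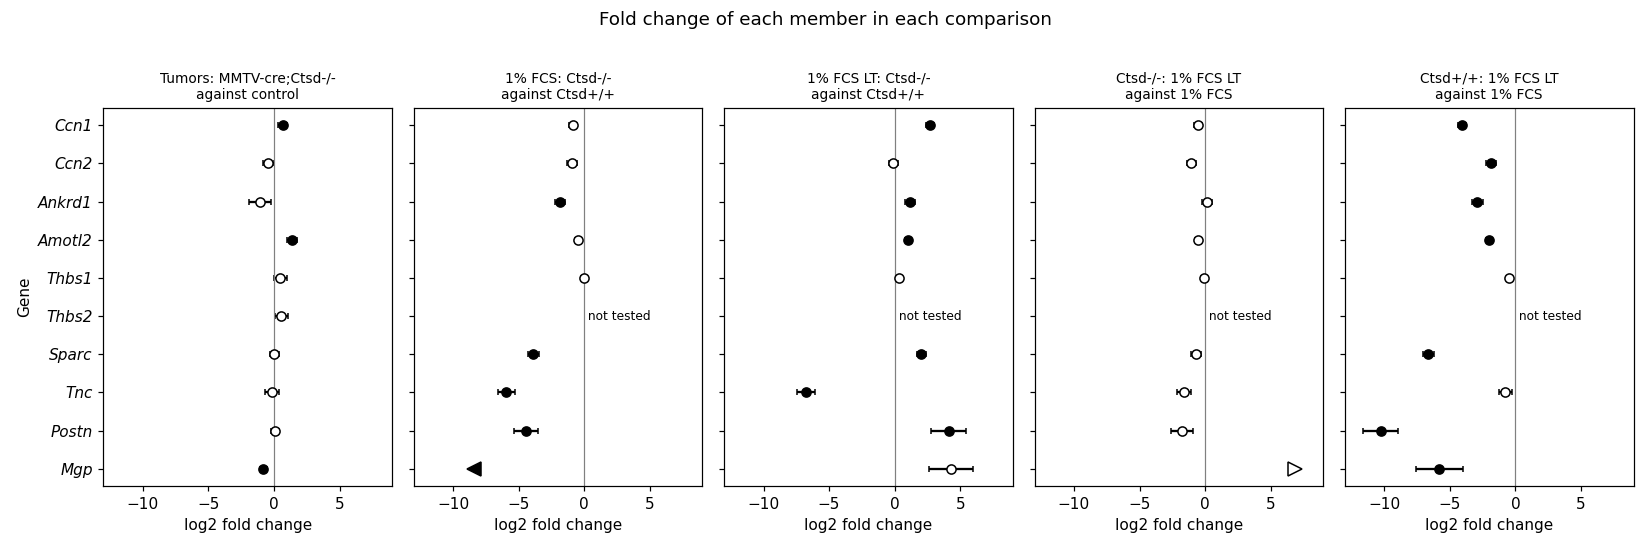
Log2 fold change (x axis) of each member (y axis) in the tumor comparison and 4 cell comparisons. Points are edgeR estimates with their standard errors, filled where the call rule of that material was met, and triangles are bounds for Mgp, whose reads were 0 in 1% FCS Ctsd-/- cells. Ccn1 changed sign between 1% FCS (-0.88) and 1% FCS LT (2.66), whereas Tnc stayed low (-5.95 and -6.76).

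The comparison of culture times within a genotype set 12 weeks against 10 days of culture, both in 1% FCS. No cell group in full serum was sequenced, so low serum and time in culture could not be told apart. In Ctsd+/+ cells 7 of the 9 tested members were lower in 1% FCS LT than in 1% FCS and 0 were higher, against 12.3% lower and 11.0% higher among all genes. Sparc fell 99.1-fold (log2 fold change -6.63 ± 0.45, adjusted p = 7.70e-07), Ccn1 fell 16.9-fold (-4.08 ± 0.33, adjusted p = 2.20e-06) and Postn fell with a log2 fold change of -10.29 ± 1.32 (adjusted p = 7.24e-05). Ankrd1 (-2.91 ± 0.42), Amotl2 (-2.02 ± 0.23) and Ccn2 (-1.89 ± 0.37) fell with adjusted p values from 3.15e-05 to 0.00137. None of these 6 genes overlapped between the times, and the share of all genes without overlap was not counted. Mgp was also called (-5.79 ± 1.77, adjusted p = 0.0225), but not without 1% FCS Ctsd+/+ replicate 1 (-4.12), without any one of the 1% FCS LT Ctsd+/+ samples (-5.50 to -6.24), with run as a covariate (-3.28), within the run that held all groups (-4.55) or with limma-voom (-4.42). Tnc (-0.77 ± 0.52) and Thbs1 (-0.47 ± 0.21) did not pass.

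In Ctsd-/- cells 0 of the 9 members passed between the times in edgeR's test, where the shares over the whole table were 1.11% higher and 0.369% lower. Those shares stood for 225 genes (1.48%), a number that was 502 with DESeq2, 557 with run as a covariate and 484 within the run that held all groups. When each sample was left out it ranged from 48 without 1% FCS Ctsd-/- replicate 2 to 291 without 1% FCS LT Ctsd-/- replicate 3 and was 54 without 1% FCS Ctsd-/- replicate 3, and 110 and 74 without 1% FCS LT Ctsd-/- replicates 1 and 2. An unadjusted p under 0.05 was reached by 4 members and by 18.0% of all genes, the members being Ccn2 (-1.05 ± 0.36, adjusted p = 0.151), Amotl2 (-0.54 ± 0.22, adjusted p = 0.229), Tnc (-1.59 ± 0.54, adjusted p = 0.149, and -2.39 without 1% FCS LT Ctsd-/- replicate 2) and Mgp. DESeq2 called Ccn2 and Mgp, with 3.31% of all genes. Values in 1% FCS and 1% FCS LT were 493, 904 and 519 against 262, 342 and 320 CPM for Ccn2. For Tnc they were 93.9, 48.6 and 67.9 against 19.9, 43.4 and 6.87 CPM. Amotl2 spanned 263 to 340 against 182 to 220 CPM and Sparc 241 to 282 against 72.2 to 223 CPM. These ranges did not overlap, but how many of all genes were separated in this way was not counted. Mgp had 1206, 73 and 16 reads in the 1% FCS LT samples against 0 in each 1% FCS sample, at least 117-fold higher in the mean and at least 12.8-fold without replicate 1, and was not called (adjusted p = 0.102). Ccn1 was -0.54 ± 0.29 and Sparc -0.70 ± 0.36, both short of the threshold.

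The difference between the lines in their response to long culture was tested as the interaction of genotype and culture time. It was above 2-fold with an adjusted p under 0.05 for 6 members, all in the direction of a smaller fall or a rise in Ctsd-/- cells, against 11.0% of all genes in that direction and 8.12% in the other. These were Ccn1 (3.54 ± 0.42, adjusted p = 9.02e-05), Ankrd1 (3.03 ± 0.56, adjusted p = 0.00184), Amotl2 (1.48 ± 0.32, adjusted p = 0.00447), Sparc (5.93 ± 0.54, adjusted p = 1.60e-05), Postn (8.52 ± 1.55, adjusted p = 0.00165, and 9.81 without 1% FCS Ctsd-/- replicate 1) and Mgp, whose size could not be fitted reliably because of the group at 0. Ccn2 (0.84 ± 0.50), Thbs1 (0.37 ± 0.30) and Tnc (-0.82 ± 0.74) did not pass, and Postn and Mgp lost the call with limma-voom. When each sample was left out in turn, Ccn2 ranged from 0.28 to 1.18 and Thbs1 from 0.20 to 0.58. Tnc ranged from -1.62, without 1% FCS LT Ctsd-/- replicate 2, to -0.38, without replicate 3 of that group. The comparisons in the cells share groups and are not independent of each other.

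Markers of cell types moved with these results. The summed level of 8 fibroblast markers was 1178, 3310 and 1673 CPM in 1% FCS Ctsd+/+ cells, 11.8, 5.04 and 5.62 CPM in 1% FCS Ctsd-/- cells, 3.05, 4.00 and 8.37 CPM in 1% FCS LT Ctsd+/+ cells and 99.8, 14.5 and 9.51 CPM in 1% FCS LT Ctsd-/- cells. In the high group the most abundant of them were Col1a1, a fibrillar collagen chain (531, 2320 and 1460 CPM), and Pdgfrb, a growth factor receptor of mesenchymal cells (552, 694 and 160 CPM), while Lum and Thy1, which also mark fibroblasts, had 0 reads in those 3 samples and Dcn had at most 1.86 CPM. Col1a2 had a mean of only 2.27 CPM there. Col3a1 had at most 7 reads in any other cell sample and passed the low-count filter only through that group, so its lower level elsewhere was set by the filter. The 7 epithelial markers summed to 937, 1630 and 2060 CPM in that group and to 9581, 11960 and 12170, 5594, 5376 and 5698, and 6675, 7507 and 8856 CPM in the other groups in the same order. All 5 fibroblast markers tested, Col3a1 with its direction set by the filter among them, were lower and all 6 epithelial markers tested were higher in Ctsd-/- cells in 1% FCS. Among all genes 14.6% were lower and 10.3% higher there. The part of this shift in the members' differences was not tested. After 12 weeks the fibroblast sums were under 100 CPM in every sample, and 2 of 5 fibroblast markers were called higher in Ctsd-/- cells and 0 lower. Of 6 epithelial markers 1 was called lower and 0 higher, while 5 had a positive log2 fold change (median of the 6, 0.33). Among all genes 9.24% were called higher and 10.1% lower. Basal or myoepithelial markers, led by Krt14 and Acta2, summed to 45.2, 101 and 58.3 CPM in 1% FCS Ctsd+/+ and 5.72, 7.996 and 8.45 CPM in 1% FCS Ctsd-/- samples, and to 76.7, 66.8 and 19.2 against 5.65, 4.82 and 4.11 CPM in 1% FCS LT. The 4 pericyte markers summed to 96.6, 53.0 and 51.2 against 57.1, 24.9 and 33.3 CPM in 1% FCS and to 567, 422 and 385 against 47.6, 44.1 and 36.8 CPM in 1% FCS LT, nearly all of it Notch3, a receptor that other cell types also express. The 4 macrophage markers summed to 6.51, 7.48 and 14.2 against 27.2, 15.9 and 11.4 CPM in 1% FCS and to 54.9, 58.2 and 63.6 against 8.79, 13.6 and 25.1 CPM in 1% FCS LT. In 1% FCS LT both tested macrophage markers were called, Csf1r lower (-3.42 ± 0.50) and Cd68 higher (1.54 ± 0.55) in Ctsd-/- cells, while Adgre1 and Mrc1 had at most 12 reads in any cell sample. Endothelial sums were at most 7.02 CPM, adipocyte sums at most 1.84 CPM and lymphocyte sums at most 0.107 CPM in any cell sample. The part of these markers in the members' differences was not tested. Within 1% FCS LT, the fibroblast marker sum and Mgp were both highest in Ctsd-/- replicate 1.

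**Figure D3:**
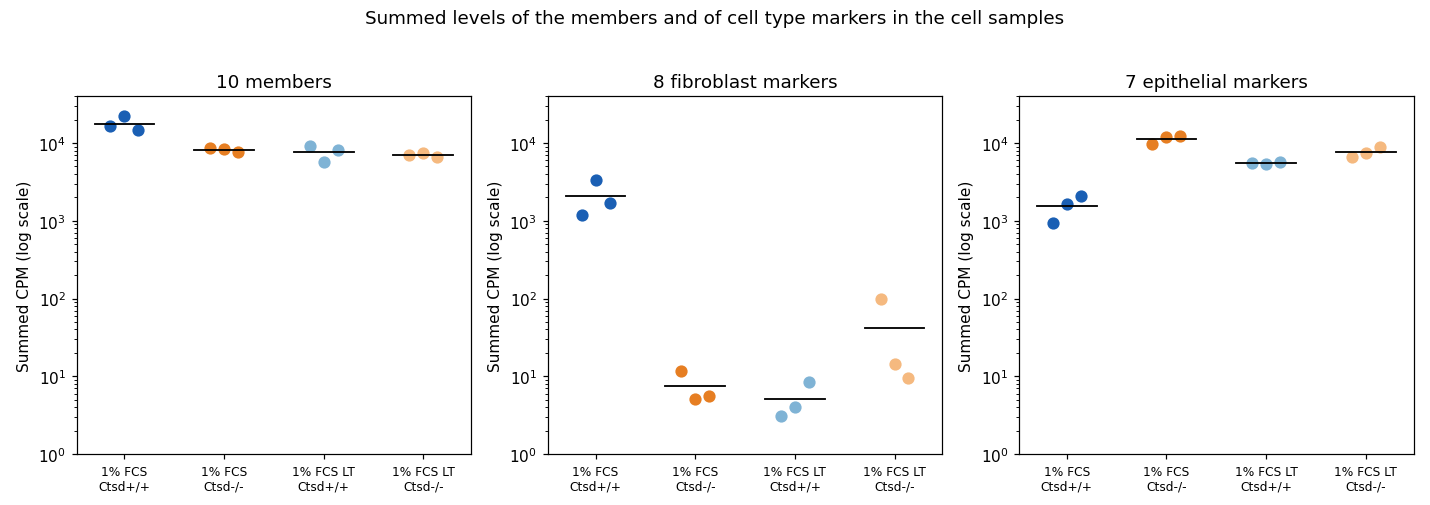
Summed CPM (log axis) of the 10 members, of 8 fibroblast markers and of 7 epithelial markers in each of the 12 cell samples. Points are samples and bars are group means. The 1% FCS Ctsd+/+ samples were the highest for members and fibroblast markers (1178 to 3310 CPM) and the lowest for epithelial markers (937 to 2060 CPM).

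In the tumors the study called genes at an unadjusted p under 0.1, and the same rule was applied with edgeR. It called 2 members higher (Ccn1 and Amotl2) and 1 lower (Mgp) in MMTV-cre;Ctsd-/- tumors, against 8.44% higher and 8.27% lower among the 18617 genes tested, and 0 of the 10 members had an adjusted p under 0.05, as compared with 1 gene in the whole table. An unadjusted p under 0.05 was reached by 2 members and by 8.94% of all genes. Control replicate 4 had the fewest reads on genes (49725437) and the highest share of mapped reads that fell on more than 1 gene (16.2%, against 8.73% to 12.8% in the other controls and 7.37% to 10.2% in the deleted tumors), and it was the lowest control for Ccn1, Ccn2, Amotl2 and Thbs1. Without it the log2 fold changes were 0.51 for Ccn1, which lost its call, 1.22 for Amotl2, -0.89 for Mgp, -0.67 for Ccn2 and 0.27 for Thbs1. In bulk tissue, fewer cells of a type and less RNA per cell cannot be told apart.

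Amotl2 was 11.6, 16.8, 13.4 and 8.68 CPM in control tumors and 17.0, 19.96, 43.0 and 49.5 CPM in MMTV-cre;Ctsd-/- tumors. Its tumor groups did not overlap, the margin being between 16.8 and 17.0 CPM, with a log2 fold change of 1.36 ± 0.37 (edgeR adjusted p = 0.416). The share of all genes whose tumor groups did not overlap was not counted. Ccn1 was 83.6, 93.4, 80.4 and 49.3 CPM against 92.0, 216, 118 and 62.7 CPM. These groups overlapped, and the log2 fold change of 0.67 ± 0.36 (edgeR adjusted p = 0.592) was 0.24 without MMTV-cre;Ctsd-/- replicate 2 and lost its call also without control replicate 1 (0.72) or 3 (0.69), without MMTV-cre;Ctsd-/- replicate 3 (0.69) and with limma-voom (0.56). Mgp was 314, 269, 131 and 172 CPM against 132, 120, 148 and 110 CPM, with 3 controls above all deleted tumors and the control of 131 CPM within their range (-0.80 ± 0.28, edgeR adjusted p = 0.527).

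The remaining members gave no call. Ccn2, whose exons overlap the antisense gene Gm15270 over 23.2% of their length, was 38.4, 61.3, 44.9 and 20.1 CPM in controls and 12.7, 35.4, 48.9 and 23.9 CPM in MMTV-cre;Ctsd-/- tumors (-0.45 ± 0.42), and the reads of the 2 genes cannot be told apart in the unstranded tumor libraries. Ankrd1, with 1.07, 3.98, 0.763 and 4.31 against 0.213, 3.40, 0.764 and 0.581 CPM, was low in both (-1.03 ± 0.84). Without MMTV-cre;Ctsd-/- replicate 2 it was -2.28 and passed an unadjusted p under 0.1. Thbs1 (0.48 ± 0.48), Thbs2 (0.57 ± 0.46), Sparc (0.04 ± 0.32), Tnc (-0.15 ± 0.50) and Postn (0.09 ± 0.28) overlapped between genotypes. Without control replicate 2, Thbs1 (0.90) and Thbs2 (0.95) also passed that threshold, and Thbs2 did so without MMTV-cre;Ctsd-/- replicate 1 (0.85). Sparc spanned 1234 to 2713 CPM in controls and 1551 to 2733 CPM in MMTV-cre;Ctsd-/- tumors, and Postn 168 to 399 and 228 to 356 CPM.

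Marker sums in the tumors differed between genotypes as well, where 8.44% of all genes were called higher and 8.27% lower. The 5 adipocyte markers summed to 267, 848, 209 and 2151 CPM in controls and 2786, 1045, 6418 and 10740 CPM in MMTV-cre;Ctsd-/- tumors, led by Fabp4, and all 5 were called higher. Of 4 endothelial markers 3 were called higher, with sums of 66.0, 80.3, 34.6 and 29.1 against 46.0, 79.3, 207 and 196 CPM, led by Pecam1. The 2 deleted tumors with the highest Amotl2 were those with the highest adipocyte and endothelial sums, and also with the highest basal or myoepithelial sums (1677 and 1153 CPM, against 444 to 1107 CPM in the other tumors) and pericyte sums (171.5 and 193 CPM, against 88.0 to 117 CPM). None of the basal, epithelial, macrophage and lymphocyte markers was called, and of the 4 pericyte markers 1 was called higher and 1 lower. The fibroblast sum was 2218, 3465, 868 and 980 CPM in controls and 1697, 2407, 2906 and 2117 CPM in deleted tumors, and 1 of 8 of its markers was called higher. The part of these cell type markers in the members' tumor values was not tested.

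Side by side, with no test because tumors and cells were normalized separately, Thbs1 was 94.0 to 476 CPM in tumors and 3967 to 7587 CPM in cells, and Thbs2 was 15.7 to 80.7 CPM in tumors and at most 0.178 CPM in cells. Mgp and Postn were at least 110 and 168 CPM in every tumor. In cells Postn came to that level in 2 samples, both 1% FCS Ctsd+/+, and Mgp in none.

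The pathway around the members was described with 2 further lists. Of 18 other YAP/TAZ target genes tested in the cells, 8 were lower and 2 higher in Ctsd-/- cells in 1% FCS, with a median log2 fold change of -0.88, against 14.6% of all genes lower and 10.3% higher. The 4 largest were Igfbp3, an insulin-like growth factor binding protein (10.5 CPM in Ctsd+/+ and 0.0296 CPM in Ctsd-/- cells, 3 reads in all), Rbms3, an RNA-binding protein (-7.19 ± 0.84), Foxf2, a mesenchymal transcription factor (-6.15 ± 0.59), and Tgfb2, a TGF-beta ligand (-4.15 ± 0.46), each with an adjusted p of 3.19e-05 or less. Igfbp3 passed the low-count filter only through Ctsd+/+ cells. Rbms3, with at most 42 reads in any other cell sample, passed it only through those in 1% FCS. Their directions against these cells were therefore set by the filter. After 12 weeks 3 were lower and 2 higher, with a median of 0.19, against 10.1% and 9.24% of all genes. Igfbp3 was 247 CPM in Ctsd+/+ cells there and had 1 read in the Ctsd-/- samples, Arhgef17 was -2.18 ± 0.18 and F3, tissue factor, was -1.29 ± 0.41, while Fjx1 was 2.10 ± 0.49. Over culture time 9 fell and 2 rose in Ctsd+/+ cells (12.3% and 11.0% of all genes), among them Rbms3 (-7.57 ± 0.86) and Tgfb2 (-5.61 ± 0.50) with the members and Igfbp3 against them (4.55 ± 0.36, adjusted p = 2.03e-06). In Ctsd-/- cells 0 of the 18 passed with edgeR, and 4 had an unadjusted p under 0.05, as had 18.0% of all genes. The interaction passed for 8 in the members' direction and 1 in the other (11.0% and 8.12% of all genes), led by Rbms3 (8.56 ± 1.21), Foxf2 (6.08 ± 0.79), Tgfb2 (5.20 ± 0.64) and Crim1 (4.63 ± 0.49). In the tumors 4 of 17 were called higher and 0 lower at the unadjusted p under 0.1 (8.44% and 8.27% of all genes), with a median of 0.37 and no adjusted p under 0.05.

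Of 22 genes of the Hippo pathway core (of which Lats2 and Ptpn14 also stand among the targets) 1 was higher and 1 lower in Ctsd-/- cells in 1% FCS, where 10.3% of all genes were higher and 14.6% lower, namely Wwc1, a scaffold that activates the LATS kinases (1.19 ± 0.13, adjusted p = 2.33e-05), and Vgll3, a TEAD cofactor (-1.38 ± 0.23, adjusted p = 0.000423). After 12 weeks 0 of 22 passed both thresholds, beside 10.1% of all genes lower and 9.24% higher, and 7 had an adjusted p under 0.05, which 39.6% of all genes had. In Ctsd+/+ cells over culture time Tead1 fell (-1.55 ± 0.12, adjusted p = 2.11e-06) and Tead4 rose (1.50 ± 0.14, adjusted p = 7.11e-06), Amot (-1.61 ± 0.24), Vgll3 (-2.18 ± 0.24) and Lats2 (-1.38) fell (4 of 22 lower and 1 higher, against 12.3% and 11.0% of all genes), and the interaction passed for Tead4 (-1.50 ± 0.20), Tead1 (1.30 ± 0.17), Vgll3 (1.51 ± 0.32), Lats2 (1.28 ± 0.22) and Wwc1 (-1.15), which is 3 in the positive and 2 in the negative direction, against 11.0% and 8.12% of all genes. In Ctsd-/- cells only Amot, an angiomotin related to Amotl2, passed between the times with edgeR (-1.40 ± 0.24, adjusted p = 0.0136). It was lower in 1% FCS LT, where 0.369% of all genes were lower and 1.11% higher. Of the co-activators themselves, Yap1 was -0.02 ± 0.08 in 1% FCS (adjusted p = 0.866) and 0.14 ± 0.08 in 1% FCS LT (adjusted p = 0.191). Wwtr1, the gene for TAZ, was 1.73-fold lower in Ctsd-/- cells in 1% FCS (-0.79 ± 0.17, adjusted p = 0.00197, groups not overlapping), which passed the p threshold but not the 2-fold threshold, and 0.20 ± 0.16 in 1% FCS LT (adjusted p = 0.363). In the tumors 3 were called higher and 2 lower (8.44% and 8.27% of all genes), one of the latter being the kinase activator Mob1b (-0.41 ± 0.18, adjusted p = 0.555).

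**Figure D4:**
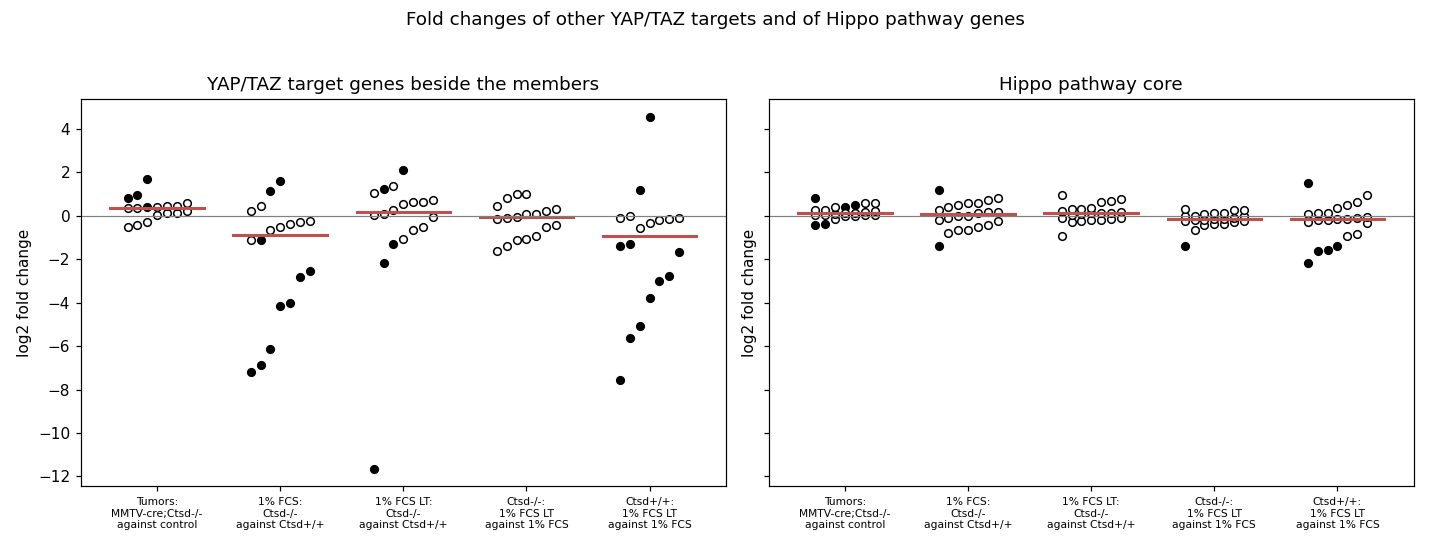
Log2 fold change (y axis) of each tested gene of 2 lists in the tumor comparison and 4 cell comparisons. Points are genes, filled where called, bars are list medians, and genes with 3 or fewer reads in every library of a group are drawn at the bound set by 3 reads. Among other YAP/TAZ targets 8 were lower and 2 higher in 1% FCS Ctsd-/- cells, against 14.6% and 10.3% of all genes. With edgeR 0 passed between the times in Ctsd-/- cells, where 1.48% of all genes did.

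Of 13 tested relatives of the matricellular members, 8 were lower in Ctsd-/- cells in 1% FCS, 1 was higher and 4 were not called, with a median log2 fold change of -2.44, against 14.6% of all genes lower and 10.3% higher. Smoc1 and Sparcl1 had at most 6 and 39 reads in any cell sample outside 1% FCS Ctsd+/+ cells. They passed the low-count filter only through that group. Their direction against it was therefore set by the filter, and they are no support in the counts given here. Ccn5 (mean 143 against 0.335 CPM, -8.65 ± 1.49) and Ccn4 (606 against 18.7 CPM, -5.01 ± 0.62) of the CCN family, Smoc1 of the SPARC family (21.2 against 0.0524 CPM) and Sparcl1, a SPARC homolog (8.0 against 0.0345 CPM), differed most. The Ctsd+/+ means of Ccn5 and Smoc1 were 62.7 and 5.66 CPM without replicate 1, and that of Sparcl1 was 4.05 CPM without replicate 2. Without Ctsd-/- replicate 1 the means of Ccn5 and Ccn4 in Ctsd-/- cells were 0.125 and 12.1 CPM. Later, in 1% FCS LT, 3 were lower and 1 higher (10.1% and 9.24% of all genes), namely Tnxb, a tenascin (-2.93 ± 0.53), Tgfbi, a homolog of periostin (-2.14 ± 0.75), Spock2 (-1.39 ± 0.50) and, higher, Smoc2 (2.95 ± 0.57). The last 3 were low, with Ctsd-/- against Ctsd+/+ means of 0.551 and 2.44 CPM (Tgfbi), 0.374 and 0.985 CPM (Spock2) and 0.564 and 0.0699 CPM (Smoc2). Smoc2 had at most 6 reads in any other cell sample and passed the filter only through 1% FCS LT Ctsd-/- cells, which set its direction. Over culture time 5 fell and 3 rose in Ctsd+/+ cells (12.3% and 11.0% of all genes), with Ccn4 at -6.90 ± 0.68 and Tnxb at 6.38 ± 0.68, while in Ctsd-/- cells 2 rose, Tnxb (1.50 CPM against 0.00811 CPM) and Smoc2 (0.564 CPM against 0.0345 CPM), both at low levels, and 0 fell (1.11% and 0.369% of all genes). The interaction passed for 6 in the members' direction, among them Ccn5 (8.49 ± 1.80) and Ccn4 (5.31 ± 0.81), and for 1 in the other (11.0% and 8.12% of all genes). In the tumors 2 of 15 were called higher and 1 lower (8.44% and 8.27% of all genes).

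Among 12 tested receptors of matricellular proteins, 3 were lower and 2 higher in Ctsd-/- cells in 1% FCS (14.6% and 10.3% of all genes). Itgb3, the integrin beta 3 subunit that binds periostin, CCN1 and thrombospondin, was 19.1, 33.7 and 12.4 CPM in Ctsd+/+ and 1.12, 1.70 and 1.39 CPM in Ctsd-/- cells (-3.95 ± 0.50, adjusted p = 0.000139). It had in 1% FCS LT 0 reads in all Ctsd+/+ samples and 2.16, 0.798 and 0.774 CPM in Ctsd-/- cells, at least 15.3-fold higher (at least 9.7-fold without Ctsd-/- replicate 1), so that its order of genotypes turned as that of Sparc and Ccn1 did. Lrp1, an endocytic receptor that takes up thrombospondin 1 and CCN2, turned likewise, with -2.08 ± 0.29 (adjusted p = 0.000109) in 1% FCS and 3.41 ± 0.30 (adjusted p = 6.48e-06) in 1% FCS LT. Itga8, an integrin alpha subunit, was higher in Ctsd-/- cells at both times (3.68 ± 0.29 and 5.08 ± 0.32). Of the receptors, 4 were higher and 1 lower in 1% FCS LT (9.24% and 10.1% of all genes). In Ctsd+/+ cells 3 fell over culture time and 0 rose (12.3% and 11.0% of all genes), in Ctsd-/- cells 0 passed with edgeR (3 had an unadjusted p under 0.05, against 18.0% of all genes), and the interaction passed for 5, all in the members' direction (11.0% of all genes), among them Itgb3 and Lrp1 (5.49 ± 0.42). In the tumors 1 of 13 was called higher and 0 lower (8.44% and 8.27% of all genes), the fatty acid and thrombospondin receptor Cd36 (2.47), which adipocytes also express.

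The genes whose levels followed 3 of the members most closely over the 12 cell samples were ranked by Pearson's r among the 15178 genes tested, as a description over samples that share lines and culture times. For Ccn1 they were Nckap1 (0.979), Rap1gds1 (0.978) and Man1b1 (0.972), for Ccn2 Myl12a (0.967), Wwc2 (0.959) and Ilk (0.951), and for Sparc Mical2 (0.990), Sync (0.988) and Cmah (0.985). Among the members themselves Ccn1 and Amotl2 (0.955) and Sparc and Postn (0.935) were the closest pairs.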

How the data were processed

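The authors trimmed reads with Trimmomatic, mapped them with STAR to the mouse genome GRCm38 (mm10) and deposited STAR gene counts for each sample in 3 columns, regardless of strand, for the first strand and for the second strand. The annotation release and tool versions are not given in the sources used here. Of the reads assigned to genes, 97.1% to 97.3% fell in the second-strand column in cells and 52.8% to 53.7% in tumors, so that column was used for cells and the unstranded one for tumors. STAR's summary lines for unassigned reads were left out. Symbols came from GENCODE M21 (45143 of 45706 IDs found). Counts were fitted with edgeR 4.0.16 (R 4.3.3), with TMM scaling and filterByExpr, by the quasi-likelihood test over all genes, separately for tumors (18617 genes) and for all 12 cell samples together (15178 genes), with p-values adjusted by Benjamini-Hochberg. CPM used TMM library sizes. The study used limma. Here limma-voom (limma 3.58.1) and DESeq2 1.42.0 are alternatives. A gene was called in tumors at p under 0.1 and in cells at adjusted p under 0.05 and absolute log2 fold change above 1. A group at 0 was set to a floor of 3 counts per library for lower bounds. Named were all members and, per list and comparison, up to 4 called genes with the largest change among those whose groups did not overlap. Yap1, Wwtr1, Wwc1 and Lats2 beyond that rule, and Cd36, were named after their values were seen. No 2 samples of a group agreed within sampling noise. Other alternatives were the size factors, the low-count filter, other strand columns, the sequencing run and leaving out each sample. Steps were tested on simulated data. The members, gene lists and tests were chosen with earlier results of these data known. Depth limits only the low genes, and bounds cover counting error only.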

Additional observations from a re-analysis of the deposited data

Results flagged for a closer look

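The interaction of genotype and culture time passed its test for 6 of the 9 members tested, all in the positive direction, against 11.0% of all genes in that direction and 8.12% in the other. The log2 interaction was 3.54 for Ccn1, 3.03 for Ankrd1, 1.48 for Amotl2, 5.93 for Sparc and 8.52 for Postn. For Mgp the fitted value was 17.4, which depends on the prior count because 1% FCS Ctsd-/- cells had 0 reads, and is no measure of size. No tumor group of 4 had a sample far from the others by Dixon's test in any of the 10 members (20 tests, where chance flags about 1 in 20).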

How the results depend on the processing

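Directions and calls of the members were kept under most alternatives, and the limits that end a call are given beside each gene. The number of members called in the tumors was 3 and ranged from 2 (without control replicate 1, 3 or 4 or MMTV-cre;Ctsd-/- replicate 3) to 5 (without control replicate 2) when each tumor was left out in turn, while the share of all genes called, 16.7%, ranged from 9.43% to 23.4%. In 1% FCS LT the number was 6 and ranged from 3 to 6 when each cell sample was left out. The share of all genes there was 19.4%, and 16.9% to 18.8% with a sample left out. In 1% FCS the number was 5 and ranged from 5 to 7. The share of all genes there was 25.0%, and 23.2% to 25.4% with a sample left out. In Ctsd-/- cells over culture time the number of members called was 0 and became 2 with DESeq2 (3.31% of all genes called), 3 without the filter on low counts (1.74%), 1 with run as a covariate (3.67%) and 1 with only those groups fitted (2.04%), against 1.48%. Signs turned only in genes not called in that comparison. With limma-voom Thbs1 in 1% FCS was 0.0125. Within the run that held all groups Ccn2 in 1% FCS LT was 0.14, Tnc's interaction 0.15, and over culture time in Ctsd-/- cells Ankrd1 was -0.47 and Thbs1 0.0459, where run as a covariate gave -0.45 and 0.0261. When each sample was left out in turn, the tumor values ranged from -0.0045 to 0.90 for Thbs1, -0.14 to 0.22 for Sparc, -0.74 to 0.38 for Tnc and -0.0774 to 0.36 for Postn, and in cells from -0.27 to 0.13 for Thbs1 in 1% FCS, -0.23 to 0.16 for Ccn2 in 1% FCS LT and -0.29 to 0.40 for Ankrd1 over culture time in Ctsd-/- cells. The causes were not tested.

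Same-numbered samples did not deviate together in every pair: r was 0.362, 0.09997 and 0.299 between the genotypes in 1% FCS, 0.070, 0.0018 and 0.119 in 1% FCS LT, and -0.303 to -0.0075 in tumors. Between the genotypes 5 of 6 samples correlated best with their own number in 1% FCS and 4 of 6 in 1% FCS LT, and between the times 6 of 6 did in Ctsd-/- cells and 0 of 6 in Ctsd+/+ cells. Between 1% FCS Ctsd+/+ and 1% FCS LT Ctsd-/- cells it was 6 of 6, between 1% FCS Ctsd-/- and 1% FCS LT Ctsd+/+ cells 0 of 6, and in tumors 0 of 8. With the replicate number as a block, members called were 4 in tumors, with Ankrd1 at -1.33 added, and 5, 6, 0, 7 and 6 in the cell comparisons, where 25.0%, 19.5%, 1.59%, 23.4% and 19.2% of all genes were called, and the genes called in the tumors fell from 3112 to 1816 (9.76%).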
